A study of Drosophila melanogaster with 21 samples.

Results

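The comparison described here is that of fly heads with pan-neuronal knockdown of *Cbp20* alone and heads of the control flies of the same genetic background, called Control KK. Libraries were chosen by their sample titles, which gave 3 *Cbp20* and 3 Control KK libraries, or 6 of the 21 libraries of the series. RNA was sequenced from whole heads of F1 females raised at 25 °C and frozen in groups, and the age of the flies is not given in the sources used here. The *Cbp20* flies carried *Elav-GAL4* and the RNAi construct P{KK109448} in a *y*, *w1118* line of the KK collection, and the Control KK flies carried *Elav-GAL4* over the *y1 w1118* host line of that collection without an RNAi construct. A second set of 3 *Elav-GAL4* control libraries, from the *w1118* host line of the GD collection (Control GD), and the 3 *Cbp20/dlg1* and 3 *Cbp20/Fsn* libraries, in which the same *Cbp20* construct was combined with a GD construct for *dlg1* or *Fsn*, are used only to place the *Cbp20* values. The knockdown rests on a single RNAi line, and the labels and methods name no second line for the sequenced flies.

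*Cbp20* encodes the small subunit of the nuclear cap-binding complex, which binds the 5′ cap of new RNA polymerase II transcripts and, with the large subunit Cbp80 and the adaptor Ars2, takes part in splicing, 3′ end formation, RNA export and microRNA processing. *Elav-GAL4* drives expression of the RNAi construct in neurons, while a whole head also holds glia, the compound eyes, antennae, muscle, cuticle-forming epidermis and a fat body that lies around the brain. A lower level in such bulk samples can reflect fewer cells of a type or less RNA per cell, which cannot be told apart.

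The 6 libraries held between 19743063 and 28036570 reads on genes, and 3 reads, the detection floor used here, corresponded to 0.107 to 0.152 CPM (counts scaled to library size). Pearson's correlation of log2 CPM across genes was 0.9972 to 0.9975 between Control KK libraries, 0.9927 to 0.9946 between *Cbp20* libraries and 0.9848 to 0.9885 between the groups. The *Cbp20* libraries were thus less alike than the controls, and replicate 2 stood apart from replicates 1 and 3 in a group of cuticle genes described below. Marker genes of neurons, glia, photoreceptors, head fat body and hemocytes were detected in all 6 libraries, whereas all 6 midgut markers were at or under 3 counts in every library. The summed level of 5 ovary markers was 0.24 to 0.39 CPM in *Cbp20* and ranged from 0.456 to 15.9 CPM in Control KK. A gene was taken as differentially expressed, and is said to have risen or fallen, when its absolute log2 fold change was above 1 and its FDR below 0.05.

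*Cbp20*, at 3R:18164661-18165439 of the BDGP6.54 annotation, had 5.08, 5.63 and 5.19 CPM with its knockdown and 14.7, 14.3 and 14.5 CPM in Control KK. The groups did not overlap, and *Cbp20* RNA was at 36.5% of its mean control level in the whole head (log2 fold change -1.45, SE 0.09, Benjamini-Hochberg FDR = 4.75e-09 in the quasi-likelihood test of edgeR, which gave all FDR values below). Levels in Control GD were 13.9, 12.6 and 13.4 CPM. The libraries with both *Cbp20* and a second gene targeted held 5.71 to 6.59 CPM, so that the 9 libraries with this construct spanned 5.08 to 6.59 CPM.

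Marker genes of the lines, and *Hsp70Bb*, were examined next. Each knockdown group carried a construct and had a targeted gene, and neither control group had either. Effects of construct and knockdown on these genes therefore cannot be told apart here. *w* (*white*), the eye pigment transporter gene whose shortened copy marks transgenes such as the RNAi constructs, was at 844, 876 and 813 CPM with *Cbp20* knockdown and at 38.8, 37.2 and 39.3 CPM in Control KK (log2 fold change 4.46, SE 0.06, FDR = 2.21e-20). It was also high in every other knockdown library, including the *dlg1* and *Fsn* flies that carry no *Cbp20* construct. *Hsp70Bb*, a copy of the inducible heat shock chaperone gene, rose as well, with 202, 218 and 235 CPM against 0.674, 0.547 and 0.545 CPM (log2 fold change 8.53, SE 0.12, FDR = 2.21e-20). The neighbouring near-identical copies *Hsp70Ba*, *Hsp70Bbb* and *Hsp70Bc* were at or below 0.98 CPM in the 6 libraries, and how reads were divided among these copies was not tested. *Hsp70Bb* was high in all other knockdown groups too, and was the only one of 20 heat shock genes tested that met both criteria. The gene *tio* was at 19.04, 20.8 and 18.6 CPM with knockdown and at 16.4, 17.6 and 15.8 CPM in Control KK, a difference that did not pass the test (log2 fold change 0.23, SE 0.10, FDR = 0.0889). *y* (*yellow*) had 1.09, 0.96 and 1.18 CPM against 1.16, 1.09 and 1.13 CPM, with overlapping groups. Of 5 strain and line marker genes, *w* and *Cbp20* were thus the only ones that changed.

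**Figure D1:**
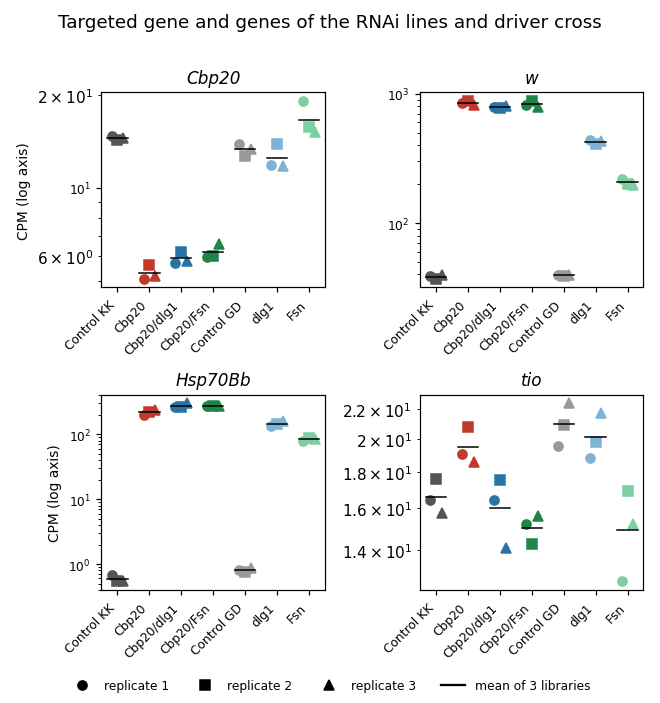
CPM of *Cbp20*, *w*, *Hsp70Bb* and *tio* in each library of the 7 groups, on log axes. Symbols are the 3 replicates and bars the group means. *Cbp20* is lower only in the 3 groups that carry its construct, at 5.08 to 6.59 CPM, while *w* and *Hsp70Bb* are high in all 5 knockdown groups and low in both control groups.

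Of 10558 genes tested, 342 were differentially expressed (3.24%), of which 125 were higher (1.18%) and 217 lower (2.06%) in *Cbp20* flies. The median log2 fold change was 1.78 among the higher and -1.26 among the lower genes, beside 0.0063 over all genes tested. Of the higher genes, 46 had a mean of at least 5 CPM over the 6 libraries, compared with 156 of the lower genes. The falls were therefore mostly moderate changes of well expressed genes, and the rises mostly larger changes of weakly expressed ones.

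Against Control GD, the same *Cbp20* libraries had 168 higher (1.59%) and 255 lower (2.42%) genes. Both comparisons share the *Cbp20* libraries, and 62 higher and 65 lower genes were differentially expressed in the same direction in each, while 5 changed in opposite directions. These 127 genes were 37.1% of the 342 and 30.02% of the 423 genes called against Control GD. When libraries of all 7 groups were placed in order, the 3 *Cbp20* libraries lay above the other 18 for 42 of the 125 higher genes (520 of all genes tested, 4.93%) and below them for 122 of the 217 lower genes (762 of all genes tested, 7.22%). The 3 Control KK libraries were themselves outermost for 11 of the higher and 31 of the lower genes (380 of all genes tested in either direction, 3.6%). The 9 libraries with the *Cbp20* construct lay beyond the other 12 for 39 genes (0.369%), of which 5 were among the higher genes and 1, *Cbp20* itself, among the lower genes. One of those 5, *Vha36-2*, a gene of the vacuolar proton pump family named here after its values were seen, had 0.875, 1.41 and 1.13 CPM against 0.241, 0.182 and 0.35 CPM (log2 fold change 2.11, SE 0.34, FDR = 0.000125).

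By chromosome arm, lower genes made up 2.81% of those tested on 2L and 1.24% on 3L, while higher genes made up 0.812% on 2L and 1.69% on 3L. On 2R, 3R and X, lower genes made up 1.96% to 2.34% and higher genes 1.10% to 1.29%, beside 2.06% and 1.18% of all genes tested. None of the 100 genes tested on the fourth chromosome was differentially expressed, where 3.24% of all genes tested were. Differences between chromosomes were not tested.

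**Figure D2:**
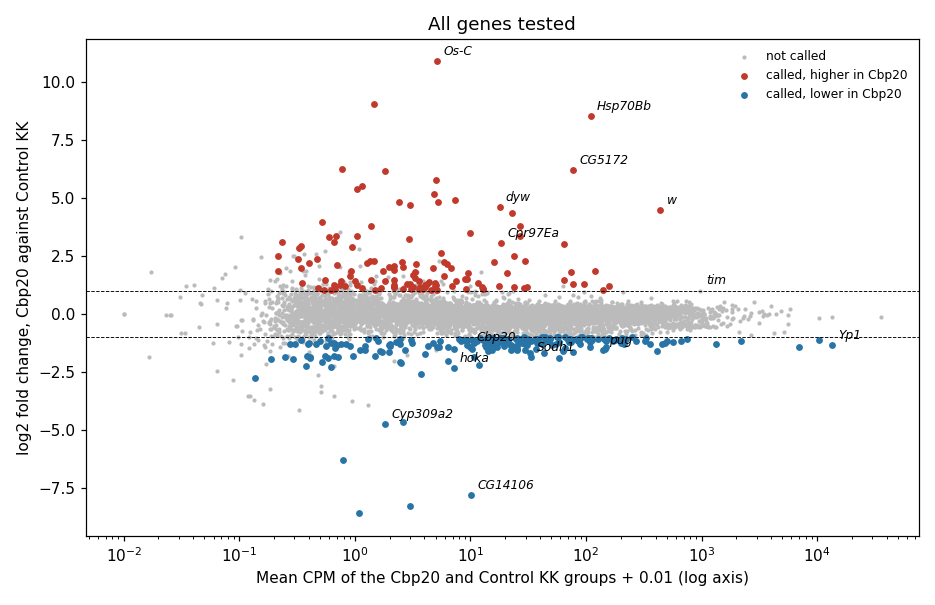
Log2 fold change of *Cbp20* against Control KK for each of the 10558 genes tested, against the mean CPM of the groups on a log axis. Red points are the 125 higher and blue points the 217 lower genes, dashed lines mark log2 fold changes of 1 and -1, and the lower genes lie in a dense band at moderate fold changes among well expressed genes.

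Genes of the cuticle made up a large group among the rises. Insect cuticle is built from the polysaccharide chitin and from structural proteins, many with a chitin-binding domain (the Cpr genes), which the epidermis secretes. Of 40 cuticle protein genes tested, 10 rose and 1 fell, beside 1.18% and 2.06% of all genes tested. The median log2 fold change of the 40 was 0.19, and 9 of the 11 called genes were also differentially expressed in the same direction against Control GD. A list of 31 genes of chitin synthesis, cuticle assembly and cuticle cross-linking, written after values had been seen and therefore not independent of them, held 9 rises and 1 fall, with a median of 0.57. All 10 of these also changed against Control GD.

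*Cht5*, which encodes a chitinase that acts at molting, reached 80.6 and 66.5 CPM in replicates 1 and 3 and 3.22 CPM in replicate 2, beside control levels of 4.19, 3.33 and 3.42 CPM (log2 fold change 3.77, SE 0.64, FDR = 0.000213). The second replicate was thus below every control library for *Cht5*. *kkv* (*krotzkopf verkehrt*), the chitin synthase gene, showed 47.8, 13.995 and 34.5 CPM against 10.7, 8.71 and 8.52 CPM (log2 fold change 1.78, SE 0.27, FDR = 6.63e-05). *reb* (*rebuff*), whose product is required for chitin deposition, had 7.92, 2.92 and 6.17 CPM against 2.6, 2.05 and 2.57 CPM. For *kkv* and *reb* all 3 knockdown libraries exceeded all controls, with replicate 2 again the lowest, and without replicate 1 the log2 fold change of *reb* was 0.90, under the threshold.

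*Pxd* (*Peroxidase*) was measured at 27.3, 4.25 and 23.4 CPM with knockdown and at 1.78, 1.6 and 1.44 CPM in Control KK (log2 fold change 3.51, SE 0.45, FDR = 9.04e-06). *Vajk2* and *Vajk3*, neighbouring members of a family of cuticle proteins, rose with 139.6, 72.1 and 116 CPM against 47.2, 42.3 and 44.6 CPM for *Vajk2*. *Vajk3* had 149, 74.6 and 125 CPM against 35.2, 31.7 and 31.7 CPM (log2 fold change 1.82, SE 0.19, FDR = 5.37e-07). The third member to rise, *Vajk1*, overlapped the controls at 8.45, 1.58 and 6.76 CPM against 2.89, 2.46 and 2.02 CPM, and its FDR of 0.0239 became 0.187 without replicate 1. In all, 4 of the 6 fits that left out 1 library did not call *Vajk1*. *obst-H*, of a chitin-binding family, was the 1 gene of this list that fell, and 4 of the 6 fits that left out 1 library did not call it. *Sclp*, which belongs to no list here, also overlapped the controls, with 173, 10.7 and 160.2 CPM against 14.3, 14.6 and 14.2 CPM (log2 fold change 2.99, SE 0.55, FDR = 0.000423).

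Among cuticle proteins, *Cpr97Ea* had the largest rise, with 48.0, 11.1 and 39.1 CPM against 3.75, 4.19 and 3.93 CPM (log2 fold change 3.04, SE 0.36, FDR = 2.87e-06). *Cpr62Bc* was at 52.6, 23.6 and 44.0 CPM against 7.85, 6.93 and 6.69 CPM (log2 fold change 2.48, SE 0.22, FDR = 1.59e-07), and *Cpr76Bd* at 37.1, 16.1 and 26.3 CPM against 6.31, 4.88 and 5.6 CPM. In these 3 genes every knockdown library was above every control. *Cpr100A* reached 189, 71.2 and 152 CPM against 61.2, 52.1 and 56.1 CPM, and without replicate 1 its log2 fold change was 0.98, under the threshold. *Cpr11A* was at 3.46, 0.206 and 3.09 CPM against 0.53, 0.456 and 0.389 CPM, and 5 of the 6 fits that left out 1 library did not call it. *Cpr92F* did not show the split, with 19.7, 17.05 and 15.5 CPM against 8.66, 8.44 and 7.71 CPM. The 1 cuticle protein gene that fell, *Cpr72Ec*, was also even across replicates, at 62.8, 61.6 and 52.3 CPM against 156, 146 and 170.4 CPM (log2 fold change -1.42, SE 0.10, FDR = 1.11e-08). *Cpr64Ac*, called higher at 1.14, 0.515 and 0.833 CPM against 0.433, 0.502 and 0.272 CPM, was at 19.4 to 20.3 CPM in Control GD, so that its direction depended on the control.

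**Figure D3:**
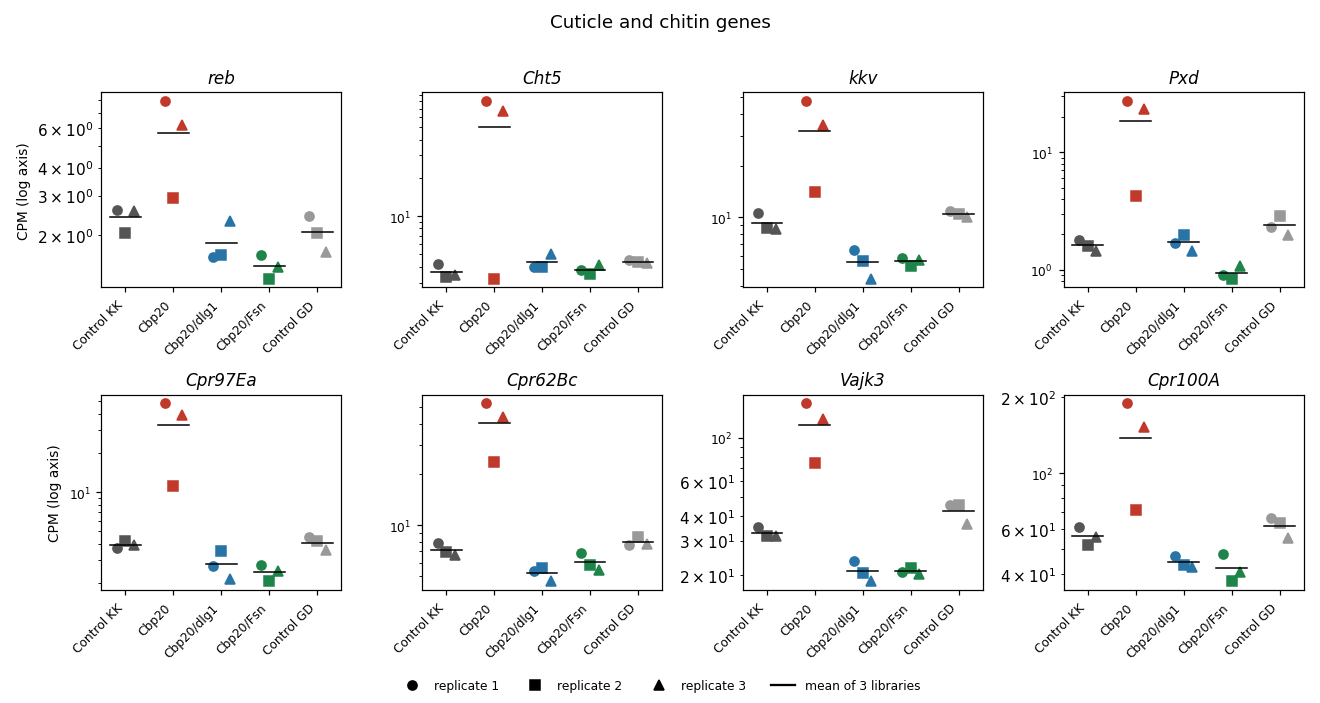
CPM of 8 cuticle and chitin genes in the libraries of 5 groups, on log axes, with symbols for the replicates and bars for the means of 3 libraries. *Cbp20* replicates 1 and 3 lie high in every panel, replicate 2 lies between them and the controls or, for *Cht5*, below the controls at 3.22 CPM, and the means of *Cbp20/dlg1* and *Cbp20/Fsn* lie near or below those of Control KK.

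Several genes outside these lists had the same profile across libraries. *dyw* (*daywake*), which lies antisense to the end of the clock gene *per*, was at 54.6, 2.88 and 45.5 CPM in *Cbp20* replicates 1 to 3 and at 1.2, 1.05 and 1.91 CPM in Control KK (log2 fold change 4.60, SE 0.67, FDR = 3.56e-05). The 2 genes overlap, and whether the counting used strand is not given in the sources used here. *CG5172* was at 248, 23.7 and 185 CPM with knockdown and at 2.5, 1.82 and 1.87 CPM in Control KK, the largest rise among genes with at least 5 CPM after *Hsp70Bb* and *Os-C* (log2 fold change 6.20, SE 0.68, FDR = 1.22e-06). *l(3)mbn* had 18.03, 0.926 and 10.8 CPM against 0.0481, 0.182 and 0.272 CPM (log2 fold change 5.78, SE 0.80, FDR = 2.27e-05). *CG13043* reached 68.4, 3.94 and 58.4 CPM against 2.07, 2.69 and 1.63 CPM. The same order held for *CG13722*, with 74.6, 6.21 and 65.7 CPM against 4.91, 3.88 and 5.45 CPM. In all 5 genes replicate 2 was the lowest knockdown library. Its place above every control was set in advance, since the rule that named the largest rises required separate groups. Among the 125 higher genes, replicate 2 was the lowest of the 3 *Cbp20* libraries for 74, was below 50% of both other libraries for 41, and was at or below the highest Control KK library for 19. Among the 217 lower genes it was the lowest of the 3 for 131 and below 50% of both others for 7. Among called genes it was thus often the lowest library in both directions, while values below 50% of both others were counted mostly among the rises. No such count was made over all genes tested. Whether replicate 2 was the lowest more often among called genes than among the rest was therefore not tested.

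With replicate 2 left out, 356 genes were differentially expressed, 166 of them higher, and 284 of the 342 genes remained. The cuticle protein list then still had 10 rises and 1 fall, and the list of chitin and assembly genes 12 rises and no fall. Leaving out replicate 1 reduced these to 5 and 7 rises, among 101 higher genes in all. No cause of the lower values in replicate 2 was tested. With the same construct in combination, the values were different. In *Cbp20/dlg1* flies 2 cuticle protein genes were higher and 4 lower than Control KK (1.3% and 0.729% of all genes), in *Cbp20/Fsn* flies 1 was higher and 4 lower (2.12% and 0.881% of all genes), and none of the chitin and assembly genes was higher in either.

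Many of the falls were of enzymes of intermediary metabolism. The insect fat body carries out most amino acid, sugar and lipid metabolism and, in females, secretes yolk proteins. Of 34 genes of amino acid metabolism, 6 fell and none rose, with a median log2 fold change of -0.47, and without the fold threshold 23 were lower at an FDR below 0.05, where 14.6% of all genes were lower and 7.02% higher. With the fold threshold, 2.06% of all genes fell and 1.18% rose. Of 28 genes of sugar metabolism, 5 fell and none rose (median -0.50). Against Control GD the medians were -0.52 and -0.31. There 6 amino acid genes fell, of which 2 were among those called against Control KK, and 1 sugar gene fell and 1 rose. In *Cbp20/dlg1* and *Cbp20/Fsn* flies no gene of either list fell, and the medians lay between -0.19 and 0.02.

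One cluster of falls lay in one-carbon metabolism and purine synthesis, where folate-bound carbon units are made and then used to build the purine ring. *pug* (*pugilist*), the gene of the trifunctional folate enzyme, was at 68.3, 66.8 and 77.3 CPM in *Cbp20* and at 201, 203 and 223 CPM in Control KK (log2 fold change -1.56, SE 0.10, FDR = 5.08e-09). *Paics*, whose product catalyses middle steps of purine ring synthesis, had 129, 107 and 136 CPM against 281, 295 and 334 CPM (log2 fold change -1.29, SE 0.12, FDR = 2.77e-07). *Gart*, encoding a multifunctional enzyme of the same route, had 68.1, 59.4 and 69.7 CPM against 129.9, 139.7 and 144 CPM. All 3 genes were without overlap between the groups and had Control GD levels above every knockdown library. *Mthfs*, of the folate cycle, fell with 7.79, 9.4 and 10.1 CPM against 22.3, 22.3 and 23.6 CPM (log2 fold change -1.32, SE 0.12, FDR = 1.68e-07). *CG11089*, the gene for the bifunctional enzyme of the last purine ring steps, had 68.6, 58.1 and 55.7 CPM against 114.8, 115.1 and 137 CPM, and 3 of the 6 fits that left out 1 library brought its log2 fold change of -1.01 under the threshold, down to -0.92. The list of 13 genes of this route was written after values had been seen. In it 5 genes fell, all of them also against Control GD, 12 had a negative log2 fold change and the median was -0.92. *pug*, *Shmt* and *Nmdmc* are also in the list of amino acid metabolism, so these lists are not separate.

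*Prat2*, for the first enzyme of purine synthesis, did not pass the fold threshold at 85.7, 88.3 and 90.1 CPM against 179.9, 156 and 163 CPM (log2 fold change -0.92, SE 0.10, FDR = 1.65e-06). Control GD had 86.0 to 96.3 CPM of *Prat2*, overlapping the knockdown libraries. *Shmt*, which transfers the one-carbon unit of serine to folate, had 67.3, 66.3 and 66.7 CPM against 121, 116 and 129.9 CPM (log2 fold change -0.87, SE 0.13, FDR = 5.27e-05). It passed the threshold only against Control GD, with a log2 fold change of -1.16.

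Enzymes around glycine, serine and glyoxylate were lower as well. *Sardh*, sarcosine dehydrogenase, had 0.963, 0.583 and 1.32 CPM against 3.9, 3.6 and 4.48 CPM (log2 fold change -2.12, SE 0.28, FDR = 1.35e-05). *Hao*, hydroxyacid oxidase, was at 16.1, 13.1 and 17.7 CPM against 46.8, 49.7 and 53.01 CPM (log2 fold change -1.68, SE 0.14, FDR = 5.49e-08), and Control GD was close to Control KK with 44.3 to 53.2 CPM. *Gcat*, glycine C-acetyltransferase, had 7.92, 6.38 and 9.26 CPM against 23.4, 21.4 and 23.5 CPM. In each of them the knockdown libraries lay apart from Control KK, and for *Gcat* Control GD was intermediate at 9.99 to 11.9 CPM. *Agxt*, an aminotransferase acting on glyoxylate, had 50.9, 49.9 and 54.1 CPM against 124, 122 and 134 CPM. *CG6415*, the aminomethyltransferase of the glycine cleavage system, showed 20.2, 18.5 and 23.9 CPM against 46.7, 44.9 and 48.4 CPM, and *CG3999*, its glycine dehydrogenase, 13.5, 10.02 and 14.9 CPM against 28.7, 29.1 and 30.4 CPM. *CG3999* had 12.5 to 14.9 CPM in Control GD and so overlapped the knockdown libraries. Of 13 genes of this group, again listed after values were seen, 8 fell against Control KK and 4 against Control GD, with 2 genes in common and medians of -1.21 and -0.61. *Sardh*, *Gnmt*, *Shmt* and *Nmdmc* are in the amino acid list as well, and *Shmt* and *Nmdmc* also in the purine and folate list.

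Single genes of the proline, ornithine and arginine route also fell. *P5cr-2*, pyrroline-5-carboxylate reductase, had 19.8, 20.9 and 20.97 CPM against 65.7, 63.0 and 69.6 CPM (log2 fold change -1.68, SE 0.14, FDR = 4.79e-08). *P5CS*, the synthase of pyrroline-5-carboxylate, had 309, 289 and 315 CPM against 703, 669 and 704 CPM (log2 fold change -1.19, SE 0.09, FDR = 2.47e-08). *Argl*, argininosuccinate lyase, had 14.6, 12.1 and 11.9 CPM against 36.0, 36.6 and 40.9 CPM. These 3 genes were close to even within each group. *Oat*, ornithine aminotransferase, was at 32.0, 27.4 and 33.6 CPM against 61.9, 64.6 and 67.8 CPM, with a log2 fold change of -1.07, and of -0.98 in 1 of the 6 fits that left out 1 library. In Control GD *P5cr-2* had 28.4 to 35.2 CPM and *P5CS* 453 to 514 CPM, between the other groups, whereas *Argl* had 29.8 to 32.8 CPM, nearer to Control KK. *P5CS* and *Argl* were named after their values were seen, and other genes of the route were not called, with log2 fold changes of -0.16 for *P5cr* (FDR = 0.244), 0.12 for *slgA* (FDR = 0.225) and -0.71 for *arg* (FDR = 0.102).

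Among enzymes of aromatic amino acids, *Hn* and *v* fell, while *Faa*, *hgo*, *Hpd*, *cn* and *cd* were not called. *Hn* (*Henna*), phenylalanine hydroxylase, had 206, 184 and 200.4 CPM against 416, 439 and 497 CPM (log2 fold change -1.20, SE 0.10, FDR = 1.02e-07). *v* (*vermilion*), tryptophan dioxygenase of the brown eye pigment route, had 16.9, 17.8 and 18.1 CPM against 34.0, 37.3 and 41.4 CPM (log2 fold change -1.09, SE 0.12, FDR = 1.84e-06). Control GD, with 275 to 314 CPM for *Hn* and 29.3 to 31.9 CPM for *v*, lay above all knockdown libraries in both genes.

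In sugar metabolism, *Amy-d*, a distal amylase gene, had 4.42, 4.29 and 3.77 CPM against 19.3, 17.4 and 21.5 CPM (log2 fold change -2.22, SE 0.29, FDR = 9.54e-06). This gene has a near-identical neighbour, *Amy-p*, so the share of reads that could be assigned to each copy is uncertain. *Hex-C*, a hexokinase, had 35.7, 32.7 and 36.2 CPM against 97.5, 94.9 and 102 CPM (log2 fold change -1.49, SE 0.10, FDR = 1.11e-08). *Tps1*, which makes the blood sugar trehalose, had 406, 395 and 436 CPM against 923, 891 and 948 CPM (log2 fold change -1.16, SE 0.09, FDR = 4.99e-08). *Galt*, of galactose use, fell by 1.17 and *fbp*, of gluconeogenesis, by 1.16 on the log2 scale. Only *Amy-d* of these 5 was also called against Control GD, where *Hex-C* stood at 50.4 to 55.3 CPM and *Tps1* at 499 to 589 CPM. *Sodh1*, sorbitol dehydrogenase, fell against both controls, at 14.6, 10.4 and 18.9 CPM against 54.2, 49.1 and 53.2 CPM in Control KK and 55.3 to 65.6 CPM in Control GD (log2 fold change -1.85, SE 0.19, FDR = 5.84e-07 against Control KK).

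**Figure D4:**
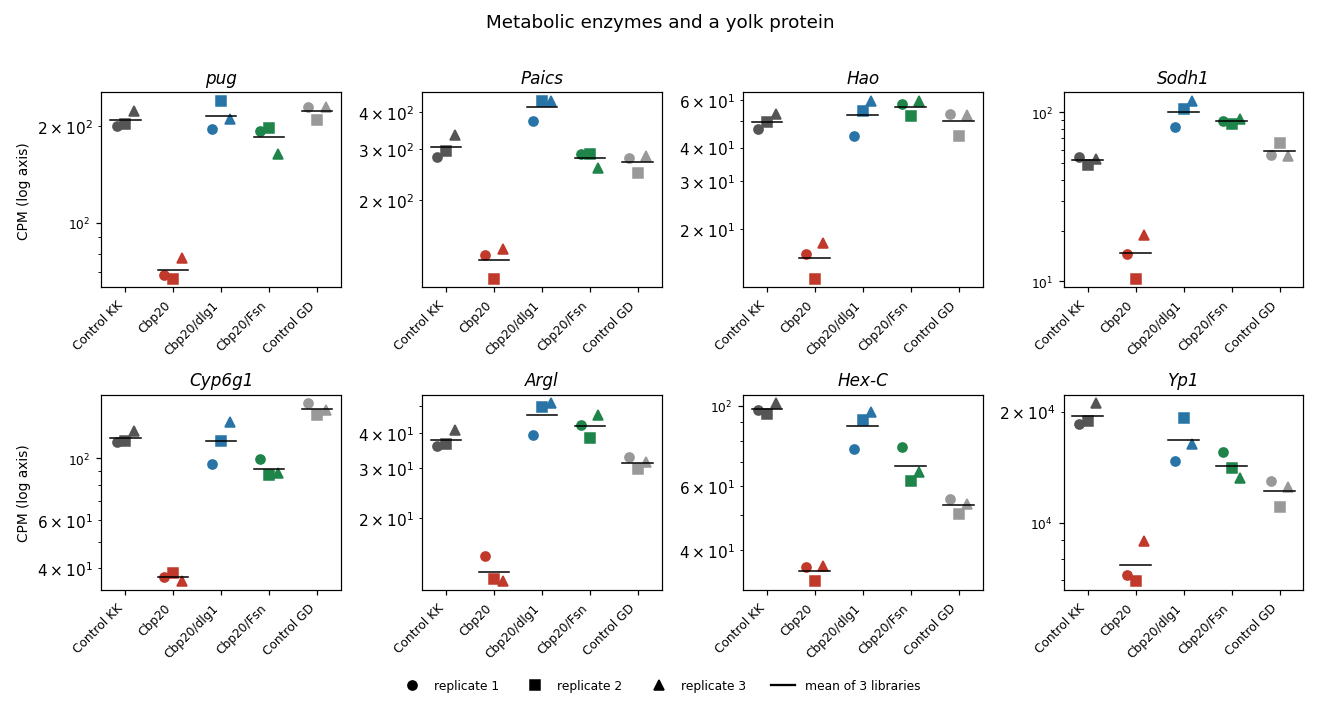
CPM of 6 metabolic genes, the cytochrome P450 gene *Cyp6g1* and the yolk protein gene *Yp1* in the libraries of 5 groups, on log axes, with symbols for replicates and bars for means of 3 libraries. The 3 *Cbp20* libraries lie below every other library in each panel. Control GD lies near Control KK for *pug*, *Paics*, *Hao* and *Sodh1* and between Control KK and *Cbp20* for *Hex-C* and *Yp1*.

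The yolk protein genes, expressed by the female fat body and ovary, all fell. *Yp1* was at 7224, 6963 and 8932 CPM with knockdown and at 18461, 18857 and 21025 CPM in Control KK (log2 fold change -1.34, SE 0.13, FDR = 4.23e-07). *Yp2* had 3512, 3497 and 4304 CPM against 9142, 9933 and 11603 CPM (log2 fold change -1.44, SE 0.15, FDR = 5.79e-07), and *Yp3* fell by 1.11. Control GD had 11037 to 12979 CPM of *Yp1*, above the knockdown libraries and below Control KK, and no yolk protein gene was called against it. The summed level of 7 head fat body markers was 19558 to 25283 CPM in *Cbp20* and 46058 to 55280 CPM in Control KK, with 3 of the 7 lower and none higher. Those 3 are the yolk protein genes, which make up most of that sum. Of 28 genes of fat body secretion and lipid metabolism, the yolk protein genes were the only ones past the fold threshold, while 17 were lower and 1 higher at an FDR below 0.05, with a median of -0.34 beside -0.06 against Control GD. The 7 fat body markers had a median of -0.81, the value of *apolpp*, the lipid carrier precursor (FDR = 6.63e-05). Genes of lipid handling outside this list were named after their values were seen. *bgm* (*bubblegum*), a long-chain acyl-CoA synthetase, had 81.6, 77.6 and 81.1 CPM against 215, 212 and 226 CPM (log2 fold change -1.44, SE 0.08, FDR = 1.57e-09), with 94.1 to 102 CPM in Control GD. *Jabba*, for a lipid droplet protein, was at 127, 130.3 and 144 CPM against 273, 262 and 293 CPM, but Control GD had only 86.9 to 113 CPM. *mdy* (*midway*), for the acyltransferase that makes triglyceride, was likewise lower than Control KK and level with Control GD, at 28.2, 27.1 and 30.1 CPM beside 56.8, 62.0 and 66.2 CPM and beside 30.0, 26.0 and 31.4 CPM. None of these 3 genes passed the fold threshold against Control GD, where the log2 fold changes were -0.28 for *bgm*, 0.41 for *Jabba* and -0.03 for *mdy*.

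*Glt* (*Glutactin*), a gene for a basement membrane protein, was the only one of 13 basement membrane genes that met both criteria. It had 276, 254 and 323 CPM with knockdown and 654, 671 and 728 CPM in Control KK (log2 fold change -1.27, SE 0.10, FDR = 3.04e-08). Control GD had 403, 355 and 385 CPM, and against it the log2 fold change was -0.42 (FDR = 0.00344), under the threshold.

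Cytochrome P450 enzymes oxidise steroids, fatty acids and toxins. Of 76 genes listed for them by symbol, 8 fell and none rose (median -0.21). The 76 include *Cyp1* and *Cyp40*, which are cyclophilin genes, and the pseudogene *Cyp6t2Psi*, none of them called. Of all genes tested, 2.06% fell and 1.18% rose. Against Control GD 7 of the 76 fell and 5 rose, beside 2.42% and 1.59% of all genes, and 3 fell against both controls. Leaving out *Cbp20* replicate 2 or 3 gave 1 rise. *Cyp6g1*, known for its part in insecticide resistance, had 37.4, 38.5 and 36.0 CPM against 114, 116 and 126 CPM, with 144 to 158 CPM in Control GD (log2 fold change -1.67, SE 0.10, FDR = 3.21e-09). *Cyp309a1* had 1.36, 0.652 and 1.22 CPM against 5.82, 6.34 and 7.12 CPM (log2 fold change -2.62, SE 0.40, FDR = 6e-05). Both lay below all libraries of both controls. Its neighbour *Cyp309a2* differed mainly through Control KK, with 0.131, 0.103 and 0.147 CPM in *Cbp20*, 3.42, 3.28 and 3.85 CPM in Control KK and 0.271 to 0.561 CPM in Control GD. *Cyp12d1-p* changed direction with the control, at 0.613, 0.377 and 1.03 CPM against 1.49, 1.78 and 1.95 CPM in Control KK and 0.135 to 0.224 CPM in Control GD. *Cyp12d1-p* lies in a tandem pair of near-identical copies, and its reads may be split between them. *Cyt-b5-r*, a cytochrome b5-related gene, fell from 601, 597 and 647 CPM to 193, 182 and 229.6 CPM (log2 fold change -1.61, SE 0.13, FDR = 3.89e-08). Of 53 glutathione and UDP-glycosyl transferase genes, 1 fell and 1 rose, near the shares of 2.06% and 1.18% over all genes tested. *Ugt37A3* fell, at 2.36, 1.89 and 3.28 CPM against 10.1, 9.85 and 10.5 CPM, while Control GD spread from 1.49 to 11.4 CPM. *GstE4* was called higher at 7.66, 5.76 and 1.13 CPM against 0.866, 1.41 and 2.22 CPM, with overlapping groups, and 4 of the 6 fits without a library did not call it.

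Of 37 metallopeptidase genes, 7 fell and 1 rose (median -0.25), beside 2.06% and 1.18% of all genes tested. All 8 belong to the neprilysin and angiotensin-converting enzyme families, named for enzymes that cut short peptides outside the cell. Genes of these families make up most of the list, so their presence among the called genes is no result. Whether each member is an active enzyme was not examined. *Nepl18* had 13.7, 10.5 and 15.5 CPM against 37.7, 31.9 and 37.8 CPM (log2 fold change -1.45, SE 0.14, FDR = 4.2e-07). *Nepl13* had 5.73, 5.66 and 7.54 CPM against 13.6, 15.8 and 15.8 CPM, and *Ance-4* had 22.3, 20.4 and 25.0 CPM against 48.6, 54.2 and 59.1 CPM. None of these overlapped. The gene that rose, *Ance-2*, was weakly expressed at 1.88, 0.48 and 1.18 CPM against 0.0963, 0.137 and 0.156 CPM, and had its lowest value in replicate 2 as the cuticle genes did.

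*hoka*, at 3L:4898900-4900869, fell against both controls. It had 1.97, 1.92 and 3.23 CPM in *Cbp20*, 11.8, 11.2 and 12.6 CPM in Control KK and 12.4, 9.58 and 10.4 CPM in Control GD (log2 fold change -2.35, SE 0.16, FDR = 5.53e-09 against Control KK). *Cbp20/Fsn* libraries had 4.74 to 5.13 CPM of *hoka* and *Cbp20/dlg1* libraries 13.9 to 15.1 CPM, below and above both controls. The hoka protein is a part of the smooth septate junction, a seal between gut epithelial cells built with Ssk, mesh and Tsp2A. *Tsp2A* was lower too, at 0.263, 0.309 and 0.343 CPM against 1.11, 1.14 and 1.09 CPM (log2 fold change -1.85, SE 0.34, FDR = 0.000505), but against Control GD, with 0.449 to 0.721 CPM, the FDR was 0.0592. *Ssk*, with 8.05, 8.58 and 8.87 CPM against 8.66, 9.26 and 9.34 CPM, and *mesh*, with 1.58, 0.96 and 0.931 CPM against 0.674, 1.05 and 1.05 CPM, did not pass the test. These 3 partners were looked up after the value of *hoka* was seen. *CG34166* fell similarly to *hoka*, with 22.4, 25.1 and 26.4 CPM against 80.6, 93.1 and 102 CPM and 73.0 to 90.9 CPM in Control GD (log2 fold change -1.90, SE 0.17, FDR = 1.4e-07). *Osi2*, of the Osiris family, had 7.27, 8.1 and 6.47 CPM against 21.4, 18.1 and 19.7 CPM, while Control GD was at 80.7 to 86.0 CPM. *CG3699* also separated all 3 groups, at 1.23, 0.377 and 1.37 CPM, 3.03, 3.01 and 2.8 CPM and 13.6 to 15.6 CPM.

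Among antennal genes, the rises went with low values in Control KK. Odorant-binding proteins carry odour molecules through the fluid of the sensory hairs, and *Orco* encodes the co-receptor of most odorant receptors. Of 69 antennal and chemosensory genes tested, 13 rose and 3 fell (median 0.14), beside 1.18% and 2.06% of all genes tested. *Os-C*, an antennal secreted protein gene, was at 17.4, 11.1 and 2.5 CPM in *Cbp20* and had no read in any Control KK library. Against a floor of 3 reads over the 3 control libraries this was at least 236-fold higher. *a5* (*antennal protein 5*) was also without reads in Control KK and had 5.51, 2.5 and 0.637 CPM with knockdown, at least 65.8-fold higher. The third replicate was the lowest for both genes, where the cuticle genes had their lowest value in the second.

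*Obp83a* had 23.2, 13.9 and 5.83 CPM against 0.626, 0.319 and 0.467 CPM (log2 fold change 4.92, SE 0.89, FDR = 0.000372). Its neighbour *Obp83b* followed with 17.3, 8.82 and 4.36 CPM against 0.385, 0.365 and 0.311 CPM. *Obp19a* had 9.8, 6.17 and 1.32 CPM against 0.193, 0.274 and 0.195 CPM. The knockdown libraries of these genes spanned several-fold ranges and all exceeded the controls. *Obp59a* and *Obp84a* had the same profile with fewer reads, at 2.71, 1.61 and 0.196 CPM and at 3.72, 2.02 and 0.343 CPM, and at or below 0.0778 CPM in Control KK. *Orco* differed less, at 14.7, 9.12 and 5.14 CPM against 3.8, 4.56 and 4.09 CPM (log2 fold change 1.22, SE 0.29, FDR = 0.00478), and without replicate 1 its log2 fold change was 0.80.

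Control GD held the same genes at the levels of the *Cbp20* libraries, with 4.23 to 16.3 CPM of *Os-C*, 7.37 to 29.8 CPM of *Obp83a* and 7.68 to 11.5 CPM of *Orco*. Accordingly, the log2 fold change of *Obp83a* against Control GD was -0.08 (FDR = 0.941) and that of *Os-C* 0.29 (FDR = 0.795). Of the 10 antennal markers, 7 were higher and 1 lower than Control KK, and their summed level was 603 to 754 CPM in *Cbp20* and 648 to 703 CPM in Control KK. Whether the amount of antennal tissue in the collections took part in these differences was not tested. Of the 16 antennal genes called against Control KK, only *Ir75a* and *Ir75b*, ionotropic receptor genes, were called in the same direction against Control GD. *Ir75a* had 1.93, 2.06 and 1.62 CPM against 0.289, 0.137 and 0.117 CPM (log2 fold change 3.37, SE 0.52, FDR = 7.43e-05). *Ir75b* had 2.06, 1.23 and 1.71 CPM against 0.0963, 0.365 and 0.195 CPM (log2 fold change 2.89, SE 0.56, FDR = 0.000712). These 2 genes are even across the knockdown replicates, unlike the odorant-binding protein genes. The 3 genes that fell encode odorant-binding proteins. *Obp99b* was at 4.07, 4.32 and 5.29 CPM against 22.3, 14.3 and 13.9 CPM, and Control GD at 3.65 to 4.71 CPM. *Obp99c* had 213, 183 and 216 CPM against 510.4, 484 and 525 CPM (log2 fold change -1.31, SE 0.11, FDR = 1.06e-07), and *Obp99a* fell by 1.15.

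**Figure D5:**
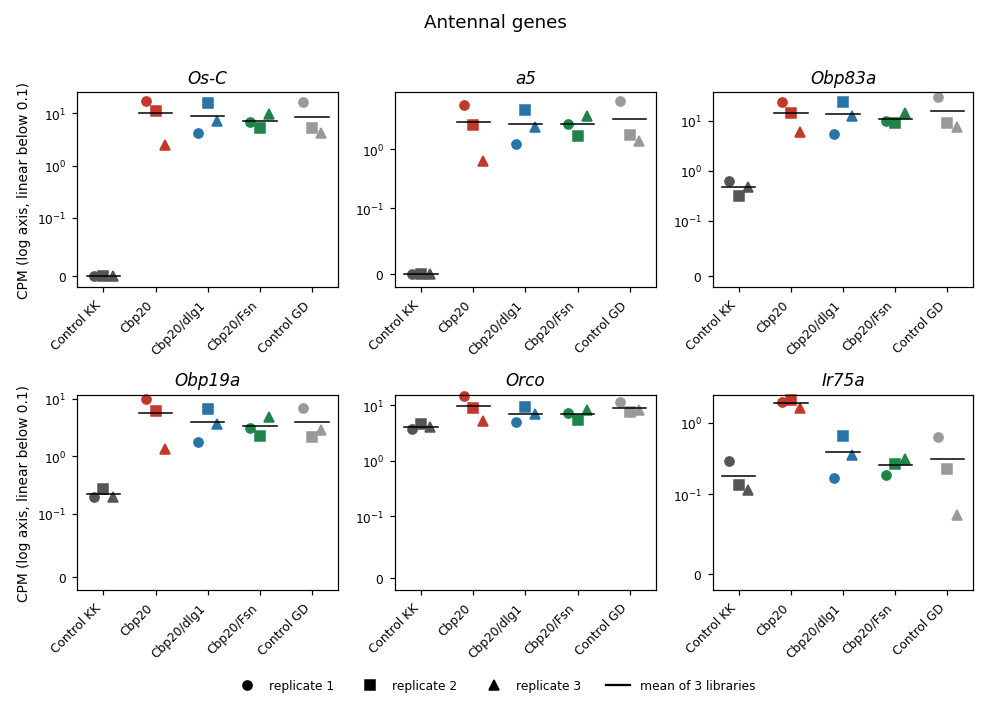
CPM of 6 antennal genes in the libraries of 5 groups, on axes that are logarithmic above 0.1 and linear below, with symbols for replicates and bars for means of 3 libraries. Control KK lies at or near 0 for *Os-C* and *a5* and is lowest for *Obp83a*, *Obp19a* and *Orco*, while the other 4 groups overlap. Only *Ir75a* sets the *Cbp20* libraries, at 1.62 to 2.06 CPM, above all other libraries.

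Genes with at least 1 CPM in every library of one group and at most 3 reads in every library of the other were few. *Os-C* was the only gene of this kind present in *Cbp20* flies, and 5 were present in Control KK. *CG14106* had 19.7, 22.9 and 17.9 CPM in Control KK and 0.0875, 0.103 and 0.049 CPM with knockdown, and no more than 0.298 CPM in Control GD and in the combined knockdowns shown here. *Sdic3* and *Sdic2*, members of a cluster of near-identical sperm dynein genes among which reads cannot be assigned with certainty, had 5.3, 6.7 and 6.07 CPM and 1.2, 1.87 and 1.56 CPM in Control KK and at most 1 read in any *Cbp20* library. *CG33263* had 2.74, 2.1 and 1.6 CPM in Control KK and no read with knockdown, at least 51.8-fold lower. The fifth gene is *Cyp309a2*, described above. All 5 were also at low levels in Control GD, far below Control KK. For *Cyp309a2* the *Cbp20* libraries were below those of Control GD too (log2 fold change -1.75, FDR = 0.0233).

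Of 487 non-coding RNA genes tested, 6 rose and 13 fell, with a median of 0.01. These counts were near the shares over all genes tested, of which 1.18% rose and 2.06% fell. Leaving out *Cbp20* replicate 2 or Control KK replicate 3 left 8 falls. *asRNA:CR43767* repeated the Control KK profile, at 0.263, 0.206 and 0.098 CPM against 4.96, 4.88 and 5.18 CPM and at most 0.18 CPM in Control GD. *asRNA:CR44291* was higher than Control KK and lower than Control GD, with 0.569, 0.446 and 0.196 CPM beside 0, 0.0456 and 0.0778 CPM and 1.49 to 1.68 CPM. Reads from these antisense genes and from their sense partners cannot be told apart unless strand was used in the counting, which the sources used here do not state.

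Of 10 Turandot and JAK-STAT genes, *TotC* and *TotA*, humoral stress peptides, fell. *TotC* was at 20.8, 20.4 and 15.2 CPM against 39.7, 66.0 and 58.9 CPM (log2 fold change -1.54, SE 0.41, FDR = 0.00963). *TotA* was at 45.6, 47.0 and 37.6 CPM against 79.3, 118 and 104 CPM (log2 fold change -1.21, SE 0.33, FDR = 0.0133), and its FDR rose to 0.0581 and 0.0536 without *Cbp20* replicate 3 and without Control KK replicate 2. Control GD was higher and less even for both, with 63.8 to 263 CPM and 144 to 457 CPM. Among 33 antimicrobial and immune peptide genes 4 fell and none rose, where 2.06% of all genes fell and 1.18% rose. This count depended on the fit, with 1 fall without *Cbp20* replicate 2, 2 without Control KK replicate 3, 6 without *Cbp20* replicate 3, and 6 rises and 4 falls of 28 genes when only the 6 libraries were fitted. *BomBc2*, of the Bomanin family that acts downstream of the Toll pathway, had 48.5, 41.6 and 49.9 CPM against 102, 89.5 and 107 CPM (log2 fold change -1.10, SE 0.16, FDR = 2.8e-05). *BomT1* had 1.66, 1.17 and 1.42 CPM against 3.42, 3.05 and 3.89 CPM, and both remained lower against Control GD. *BomS4* had 18.7, 17.9 and 20.6 CPM against 34.5, 37.3 and 44.2 CPM but 13.4 to 18.1 CPM in Control GD. *Dso1*, of the Daisho peptides, had 151, 159 and 189.9 CPM against 334, 312 and 368 CPM, and its log2 fold change of -1.02 passed below the threshold in 3 of the 6 fits that left out a library. Against Control GD 23 of the 33 genes were lower, beside 2.42% of all genes, where Control KK as reference gave 4.

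Lists of genes of neurons, glia and photoreceptors held no call. None of 7 pan-neuronal, 43 synaptic, 31 neuropeptide, 8 glial or 29 phototransduction genes was differentially expressed, with median log2 fold changes of 0.30, 0.24, 0.02, -0.02 and -0.12. At an FDR below 0.05 without the fold threshold, 8 of 43 synaptic genes were higher and none lower, 11 of 29 phototransduction genes were lower and 1 higher, and 6 of 31 neuropeptide genes were lower and 4 higher, beside 7.02% higher and 14.6% lower of all genes. *elav*, the neuronal RNA-binding protein gene whose expression *Elav-GAL4* follows, had 313, 278 and 301 CPM against 216, 234 and 236 CPM (log2 fold change 0.38, SE 0.13, FDR = 0.0406). *Syt1*, the calcium sensor of synaptic vesicles, had 2097, 1959.5 and 2095 CPM against 1522, 1645 and 1594 CPM (log2 fold change 0.37, SE 0.14, FDR = 0.0686). *nSyb*, the vesicle fusion protein gene, had 1591, 1554 and 1554 CPM against 1412, 1432 and 1469.9 CPM (log2 fold change 0.12, SE 0.06, FDR = 0.176). The knockdown libraries lay above the controls in all 3, by amounts under the threshold, and against Control GD the medians of the pan-neuronal and synaptic lists were 0.07 and 0.11. The acetylcholine receptor subunit gene *nAChRbeta3* had 26.0, 30.5 and 27.1 CPM against 32.6, 28.1 and 28.3 CPM (log2 fold change -0.09, SE 0.09, FDR = 0.537).

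The partners of *Cbp20* were also examined. Of 17 genes of cap binding and nuclear RNA export, only *Cbp20* met both criteria. *Cbp80*, its partner in the complex, had 37.6, 42.5 and 44.4 CPM against 44.7, 41.6 and 41.7 CPM (log2 fold change -0.04, SE 0.08, FDR = 0.763). *Ars2* had 131, 138 and 133 CPM against 119, 125 and 118 CPM (log2 fold change 0.16, SE 0.07, FDR = 0.1). None of 11 genes of the microRNA and siRNA machinery and none of the 8 histone and histone RNA processing genes tested was called. *AGO1*, the microRNA effector, had 467, 429 and 455 CPM against 369, 398 and 379 CPM (log2 fold change 0.24, SE 0.13, FDR = 0.217). The groups were separate for *AGO1* and *Ars2*, but neither difference passed the test. MicroRNAs themselves were not measured by these libraries.

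Of 11 circadian clock genes none met both criteria, but *tim* (*timeless*), the partner of *per* in the negative limb of the clock, lay on the fold threshold, which it passed in 2 of the 6 fits that left out 1 library. It had 1249, 1319 and 1305 CPM against 674, 629 and 635 CPM (log2 fold change 0.9994, SE 0.12, FDR = 3.33e-06), and 367 to 384 CPM in Control GD. *per* (*period*) had 137, 144 and 141 CPM against 153, 134 and 139.8 CPM, with overlapping groups. *Clk* had 34.4, 28.2 and 30.7 CPM against 42.0, 42.7 and 43.0 CPM (log2 fold change -0.46, SE 0.07, FDR = 3.57e-05) and *cry*, the blue light receptor of the clock, 183, 194 and 186 CPM against 304, 293 and 296 CPM (log2 fold change -0.67, SE 0.05, FDR = 3.36e-08). For *tim*, *Clk* and *cry* the groups were separate, while *per* was level. The time of day of the collections is not given in the sources used here. *per*, *Clk* and *cry* were named after their values were seen.

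Cytoplasmic ribosomal protein genes were lower as a whole by amounts under the fold threshold. None of 79 was differentially expressed, but 74 were lower at an FDR below 0.05 and none higher, and the median log2 fold change was -0.49. *RpL3* had 1317, 1392 and 1394 CPM against 2019, 1918 and 1945 CPM (log2 fold change -0.52, SE 0.08, FDR = 8.16e-05), and *RpL5* had 1484, 1468 and 1538 CPM against 2036, 1996 and 2013 CPM. Against Control GD the median was -0.25 and 23 of 79 were lower at this FDR, where 12.9% of all genes were lower and 7.91% higher. RLE normalization in place of TMM moved the median of all genes to 0.02 and that of the ribosomal protein genes to -0.47. The 69 nuclear oxidative phosphorylation genes had a median of -0.16 and none was called. All 14 muscle genes had positive log2 fold changes (median 0.34) without a call. Of them 11 were higher at an FDR below 0.05, beside 7.02% of all genes. Against Control GD the muscle median was 0.08, with 3 genes higher and 1 lower at this FDR. *Mhc*, the myosin heavy chain gene, had 5051, 4375 and 3977 CPM against 3702, 3766 and 3225 CPM in Control KK. Summed over 6 muscle markers this was 6594 to 8548 CPM beside 5483 to 6103 CPM in Control KK, and its part in the other results was not tested.

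No gene among 18 apoptosis, 24 cell cycle, 9 hemocyte, 6 activity-regulated transcription factor or 9 ovary and eggshell genes was called, and of 5 sex marker genes tested only the yolk protein genes were. *Diap1*, the caspase inhibitor, had 257, 261 and 253 CPM against 264, 262 and 258 CPM (log2 fold change -0.02, SE 0.05, FDR = 0.793). *CycD*, the G1 cyclin gene, had 10.4, 13.6 and 11.5 CPM against 13.7, 13.5 and 11.99 CPM, with a log2 fold change of -0.13. The median over the cell cycle genes was 0.24 and over the apoptosis genes 0.04. At an FDR below 0.05 without the fold threshold, 3 apoptosis genes were higher and 1 lower, beside 7.02% and 14.6% of all genes. The 3 were *rpr*, *hid* and *Dronc*, with log2 fold changes of 0.76, 0.41 and 0.39. Against Control GD no apoptosis gene was higher at this FDR and 3 were lower. The 37 mitochondrially encoded genes and all but 1 of the 32 midgut digestive enzyme genes did not pass the filter on low counts and were not tested.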

How the data were processed

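RNA sequencing counts of 21 libraries were used, with 6 in the main comparison. The authors deposited raw counts per gene for each sequencing batch, made by read trimming (Trimmomatic 0.36), alignment to a release 6 assembly of the fly genome (TopHat2 2.1.1) and counting per gene (HTSeq 0.6.1). Reads that fall on no gene or align more than once are not in those counts. In the 6 libraries, reads on no gene made up 8.78% to 11.2% and reads not aligned uniquely 14.1% to 16.9% of the counted reads, including these classes, so that near-identical gene copies lose reads. Batches were summed and the 5 HTSeq summary rows removed. Symbols were matched for 17253 of 17559 gene identifiers. Coordinates are those of BDGP6.54, a later annotation release than that of the authors.

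The tests ran in edgeR 4.0.16 (R 4.3.3): filterByExpr (10558 genes), TMM normalization and the quasi-likelihood test (legacy estimation) with 1 coefficient per group over all 21 libraries, with Benjamini-Hochberg correction. DESeq2 1.42.0 served as an alternative. CPM are TMM-normalized. The floor of 3 counts covers counting error only. Standard errors derive from the F statistic. The fit was tested on simulated data with known answers. The replicate numbers did not pair the libraries, since no source says that they mark shared collections. No source says that replicates came from separate crosses, so p-values measure the spread between these samples only. Tables and plots used Python 3.11.15, pandas 2.3.3 and matplotlib 3.10.9.

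The comparison, the 34 gene lists and the rule for the named genes were chosen with earlier results of these data known, and 4 further lists (chitin and cuticle assembly, purine synthesis and folate, glycine and serine, septate junction) after values were seen here. *dyw* and *Sclp*, both higher, were taken out of the chitin list because a cuticle role was not certain. The rule named *Cbp20*, *w*, *y*, *tio*, *Glt* and *nAChRbeta3*, the 12 largest rises and 12 largest falls among called genes with separate groups whose mean reached 5 CPM, the 10 largest rises and falls called against both controls, up to 4 called members per list (or, with none called, the 2 most abundant), and up to 6 genes per direction near 0 in one group. For genes named by their rank among those with separate groups, this separation was set by the choice and is no result. Other genes, among them partners and further list members, were named after their values were seen.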

Additional observations from a re-analysis of the deposited data

How the results depend on the processing

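The alternatives were RLE normalization, DESeq2, the current edgeR estimation, the likelihood ratio test, other filters, a fit of the 6 libraries only, a replicate block, other thresholds, the first sequencing batch only, Control GD as control, and each library left out. The count of 342 differentially expressed genes stayed between 248 and 423 in these fits, except without a fold threshold, where it was 2285 (741 higher and 1544 lower). With at least 10 counts required in every library, the higher genes numbered 71, since genes near 0 in one group were then not tested. Leaving out 1 library gave 313 to 366 genes, 101 to 166 of them higher and 190 to 246 lower. The deviations of same-numbered libraries correlated at -0.0218, -0.0107 and 0.0978, so the numbers were not taken as pairs; with the replicate number as a block, 339 genes were called, 336 of them among the 342. Control GD as control gave 423 genes, of which 132 were among the 342, and the log2 fold change reversed for 41 of the 342, among them these 13 of the 173 genes examined singly: *asRNA:CR43767* (1.004), *Obp99b* (0.0832), *Cyp12d1-p* (1.80), *Cyp4ac2* (0.0162), *Cyp6t1* (0.0443), *Jabba* (0.41), *BomS4* (0.32), *Cpr64Ac* (-4.60), *GstE4* (-0.15), *lush* (-0.12), *asRNA:CR44291* (-1.91), *Obp83a* (-0.0808) and *a5* (-0.13). The cause was not tested. With 3 libraries per group, changes of genes under about 1 CPM rest on few reads.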
